A study of Mus musculus with 19 samples.

Results

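The levels of 10 genes used as markers of macrophages were followed in the suprarenal abdominal aorta, out of the 20408 genes of a deposited matrix of DESeq2-normalized counts. The genes were Cd68, Adgre1, Csf1r, Lyz2, Mrc1 and C1qa, taken here as general macrophage markers, and Lyve1, Folr2, F13a1 and Cd163, taken as markers of resident macrophages. They were matched by symbol, each symbol had 1 row, and all 10 were among the 14845 genes that were tested. The question was whether the general and the resident markers moved together when angiotensin II (Ang II) was infused and when IKKβ was removed from smooth muscle.

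Macrophages of the arterial wall sit mostly in the adventitia, where they clear debris, iron and hyaluronan around small vessels. Their survival depends on CSF1 signalling through CSF1R, and their gene programme on the transcription factor PU.1, encoded by Spi1. A resident population that carries the hyaluronan receptor LYVE1 and the folate receptor FOLR2 maintains itself in place, while other macrophages derive from blood monocytes that enter the wall after injury. None of the markers is exclusive to macrophages: lymphatic endothelium also makes Lyve1, and monocytes and neutrophils also make Lyz2.

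Bulk RNA-Seq was performed on aortas of 19 male mice, 24 h after a subcutaneous pump had begun to deliver Ang II or saline. The labels give an age of 8 weeks, which the methods apply to the first tamoxifen injection, so the mice were older by the days of injection and rest when the pumps were implanted. All mice were ApoE-/- on the C57BL/6J background and carried SMA-CreERT2, a tamoxifen-inducible Cre under the Acta2 promoter, and all had received tamoxifen. Mice with Ikkβ Flox/Flox alleles are named IKKβ-/- (labelled IKKb knockout), and their littermates without floxed alleles, which carry the same Cre, IKKβ+/+ (labelled Wild-type). There were 5 IKKβ+/+ mice with saline, 5 IKKβ+/+ mice with Ang II, 4 IKKβ-/- mice with saline and 5 IKKβ-/- mice with Ang II. The labels give the Ang II dose as a range of 500 to 1000 ng/min/kg, and the methods give its upper end, 1000 ng/min/kg, for the mice used for RNA-Seq. The Acta2 promoter directs the Cre to smooth muscle, and which cells of these aortas carried the 10 transcripts or the recombined allele was not measured. Adventitial fat was dissected away before RNA was extracted from the whole vessel, and the labels name no batch, while each group holds its own block of mouse numbers, so a batch and a group cannot be told apart.

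The libraries held 11382573 to 19906694 reads in genes, and 5.99% to 38.7% of the normalized counts of a mouse were on mitochondrial genes, with the highest shares in IKKβ-/- mice. Ikbkb ranged from 594 to 791 normalized counts in saline-infused IKKβ+/+ mice and from 439 to 586 in saline-infused IKKβ-/- mice (log2 fold change -0.39 ± 0.12 SE, limma adjusted p = 0.0988). With Ang II it ranged from 685 to 779 and from 430.2 to 672 (-0.42 ± 0.12, limma adjusted p = 0.173). The labelled tissue was checked by 6 smooth muscle markers, which summed to between 304360 and 633459 normalized counts in all mice. Of the markers of other blood cells, 5 of 7 T cell genes, 4 of 5 B cell genes and 4 of 7 dendritic cell genes in the matrix had group means below 10 normalized counts in all groups. Ighm of the B cell list had a mean of 265. Other blood cell markers were present at levels that varied between mice. Their sums were 84.1 to 4590 for red blood cells, 159 to 3432 for platelets and 22.5 to 737 for neutrophils.

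The 10 markers differed widely in level. Per kilobase of exon, Lyz2, which encodes the secreted lysozyme M, was the highest with a mean of 2257 normalized counts, followed by C1qa, the A chain of the complement recognition protein C1q, with 858. F13a1 (the A subunit of the transglutaminase factor XIII) stood at 244, Lyve1 at 223, Mrc1 (the mannose receptor) at 197, Csf1r at 157, Folr2 at 127, Cd163 (the scavenger receptor for haptoglobin-haemoglobin complexes) at 116, Cd68 (a lysosomal glycoprotein of phagocytes) at 110.3 and Adgre1 (the surface receptor F4/80) at 90.4. Lyz2 was above C1qa, and C1qa above F13a1, in 19 of 19 mice. Mrc1 was above Csf1r, and Csf1r above Folr2, in 17 of 19 mice. The other neighbours were less separated: Cd68 was above Adgre1 in 14 of 19 mice, F13a1 above Lyve1 and Folr2 above Cd163 in 12, and Lyve1 above Mrc1 and Cd163 above Cd68 in 10. The exon lengths were from another Gencode release than the counts, and exons of Csf1r, Folr2 and F13a1 overlap genes on the opposite strand.

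**Figure D1:**
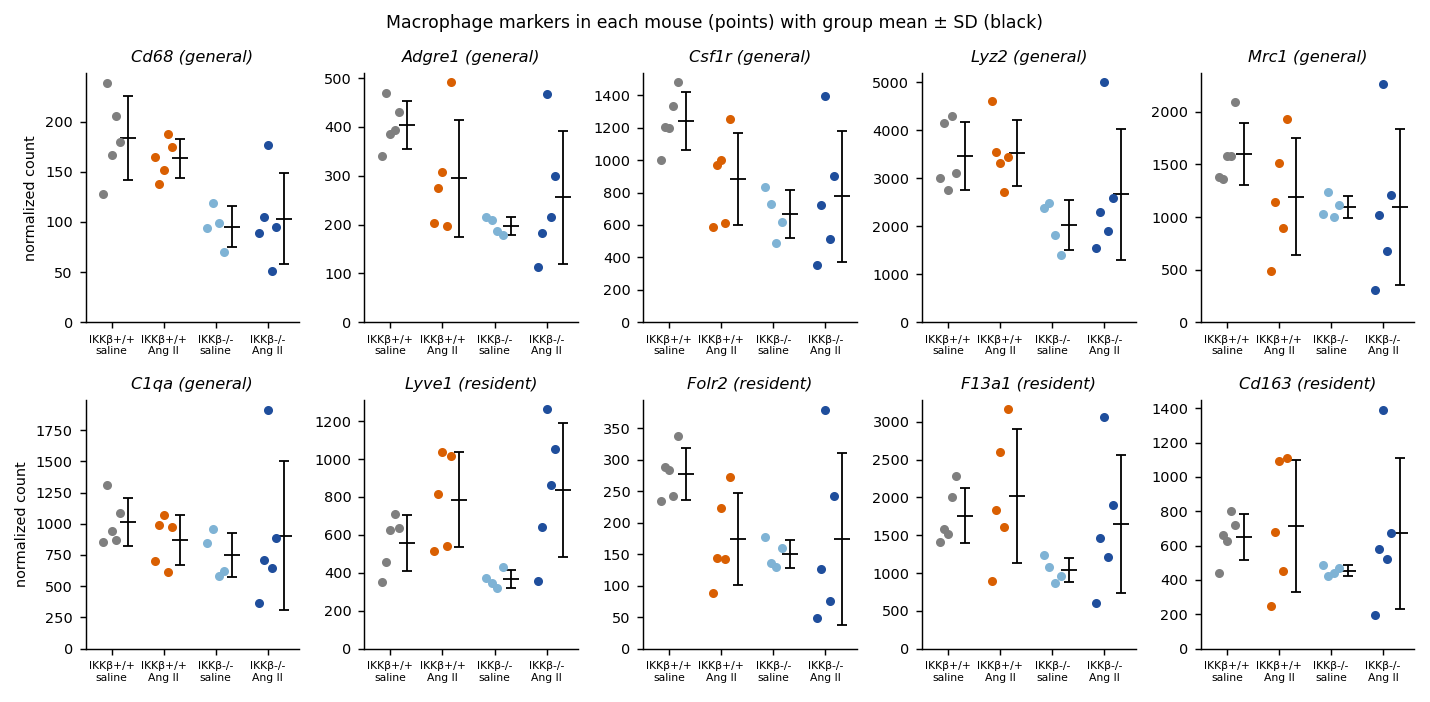
Normalized counts (y axes, from 0) of the 10 macrophage markers in each of the 19 mice by group (x axes), with the group mean and SD in black. The light blue points of saline-infused IKKβ-/- mice lie below all grey points of saline-infused IKKβ+/+ mice for 7 of the 10 markers, and the dark blue points of IKKβ-/- mice with Ang II spread most widely.

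PU.1 binds DNA at a purine-rich ETS site, so the 250 bases before the RefSeq start sites of the markers (GRCm38.p6) were searched for the letters AGGAAGT on both strands. The table of start sites held 8 windows for 6 of the markers: Mrc1, Cd163, Folr2, Lyz2, Cd68 and F13a1. Of these 8 windows 4 held the letters, and they belong to 4 of the 6 markers, while 7.69% of all 32851 windows of the same length held them. The 4 windows are shown because they are those of the markers that carry the site, 2 general and 2 resident. They lie at chr2:14229164-14229413 on the plus strand (Mrc1), chr10:117282273-117282522 on the minus strand (Lyz2), chr7:101857191-101857440 on the minus strand (Folr2) and chr13:37049214-37049463 on the minus strand (F13a1), each directly before an annotated start of the gene. Each is written 5′ to 3′ along the gene with the site in capitals, which reads ACTTCCT where it lies on the other strand.
Mrc1: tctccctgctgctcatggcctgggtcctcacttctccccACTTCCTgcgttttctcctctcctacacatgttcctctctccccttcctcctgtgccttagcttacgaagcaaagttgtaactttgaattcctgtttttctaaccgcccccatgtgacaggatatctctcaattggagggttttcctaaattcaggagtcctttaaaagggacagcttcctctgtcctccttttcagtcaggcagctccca
Lyz2: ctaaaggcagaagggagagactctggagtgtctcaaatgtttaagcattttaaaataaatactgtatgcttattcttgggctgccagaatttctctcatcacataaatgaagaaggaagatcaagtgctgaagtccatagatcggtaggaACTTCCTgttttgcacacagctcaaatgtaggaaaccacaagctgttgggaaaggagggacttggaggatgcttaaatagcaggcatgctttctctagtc
Folr2: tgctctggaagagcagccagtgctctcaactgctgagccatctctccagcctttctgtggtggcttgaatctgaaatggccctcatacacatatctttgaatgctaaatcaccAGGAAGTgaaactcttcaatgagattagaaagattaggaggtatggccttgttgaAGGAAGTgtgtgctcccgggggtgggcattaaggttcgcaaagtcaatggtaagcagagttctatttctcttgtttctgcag
F13a1: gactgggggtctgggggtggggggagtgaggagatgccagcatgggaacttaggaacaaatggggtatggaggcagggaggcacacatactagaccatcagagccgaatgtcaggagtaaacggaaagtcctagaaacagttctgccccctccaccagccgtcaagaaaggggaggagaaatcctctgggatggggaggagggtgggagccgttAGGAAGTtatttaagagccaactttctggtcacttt
The second searched motif, the MAF half-site TGCTGAC on either strand, was in 0 of the 8 windows and in 3.81% of all windows. A match here is only a run of letters, and no binding was measured.

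In saline-infused aortas, Cd68 and Adgre1 fell in IKKβ-/- compared with IKKβ+/+ mice, and none of the other 8 markers passed the threshold. Genes were called at an adjusted p below 0.1 and a fold above 1.2 in limma, so that 2 of the 10 markers were called lower beside 2.07% of all tested genes. The log2 fold changes of all 10 lay below 0, from -1.02 to -0.44 with a median of -0.77, where 52.4% of tested genes lay below 0 and the median over all tested genes was -0.02. For 7 of the 10 markers (Cd68, Adgre1, Csf1r, Lyz2, Mrc1, Folr2 and F13a1) every IKKβ-/- mouse lay below every IKKβ+/+ mouse, which held for 4.08% of tested genes. Lists of other cells in the vessel also lay below 0 in this comparison: 6 of 6 tested monocyte genes (median -1.25), 5 of 5 mast cell genes (-0.70), 3 of 3 B cell genes (-0.63), 5 of 6 blood endothelial genes (-0.61) and 5 of 5 lymphatic endothelial genes (-0.49), with 0 of them called. So did 5 of 5 adipocyte (-2.11), 4 of 4 red blood cell (-0.76), 4 of 4 neutrophil (-0.60) and 6 of 6 fibroblast genes (-0.49), with 0 called. The 2 tested T cell genes (-0.83) and 3 of 3 dendritic cell genes (-0.20) did too, with 1 dendritic cell gene called lower. Platelet genes were split (2 of 4 below 0). Smooth muscle went the other way, with 6 of 6 genes above 0 (median 0.29) and 0 called. Fewer macrophages and less of these transcripts per macrophage cannot be told apart in bulk tissue, and the 10 genes come from largely the same cells and are not independent of each other.

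Cd68 (chromosome 11, 69664213 to 69666153, GRCm38) was at 128, 239, 167, 206 and 179 normalized counts in the 5 IKKβ+/+ mice and at 93.6, 119, 99.1 and 69.7 in the 4 IKKβ-/- mice. The highest IKKβ-/- value was therefore just under the lowest IKKβ+/+ value. The log2 fold change was -0.93 ± 0.26 (SE, limma adjusted p = 0.0674), with a 95% interval from -1.47 to -0.40. Adgre1 (chromosome 17, 57358691 to 57483527) was at 341, 470.0, 385, 393 and 431 in IKKβ+/+ mice and at 216, 209.6, 187 and 178 in IKKβ-/- mice. Its groups were further apart, with a gap between them wider than the spread of the IKKβ-/- mice. The log2 fold change was -1.02 ± 0.30 (limma adjusted p = 0.0779), with a 95% interval from -1.65 to -0.40.

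Csf1r and Lyz2 were just outside the threshold. Csf1r, the receptor for CSF1 and for the second ligand encoded by Il34, was at 1001, 1203, 1199, 1333 and 1480.1 in IKKβ+/+ mice and at 836, 729, 486 and 621 in IKKβ-/- mice (log2 fold change -0.91 ± 0.30, limma adjusted p = 0.104). Lyz2 was at 3002, 4164, 2767, 4307 and 3116 against 2391, 2496, 1819.6 and 1397 (-0.79 ± 0.26, limma adjusted p = 0.104). In both genes the groups did not overlap. Up to 4.54% of the read-length windows of Lyz2 also occur in its neighbour Lyz1, which fell in the same comparison (-2.60, limma adjusted p = 0.0928). Lyz1 was far below Lyz2 in level, at 26.2 to 136 normalized counts in IKKβ+/+ mice and 0 to 31.2 in IKKβ-/- mice. Its groups overlapped.

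The 4 resident markers had log2 fold changes of -0.87 ± 0.43 for Folr2, -0.75 ± 0.36 for F13a1, -0.57 ± 0.30 for Lyve1 and -0.49 ± 0.43 for Cd163, with limma adjusted p between 0.256 and 0.558. Folr2 ranged from 234 to 338 in IKKβ+/+ mice and from 129.7 to 178 in IKKβ-/- mice. F13a1 ranged from 1410.2 to 2279 and from 872 to 1242. Neither pair of groups overlapped, while those of Lyve1 (351 to 708 against 319 to 429.6) and Cd163 (441 to 803 against 421 to 489) did. The 2 remaining general markers, Mrc1 (-0.53 ± 0.41) and C1qa (-0.44 ± 0.31), gave limma adjusted p of 0.497 and 0.454.

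Leaving out single mice kept the direction of both genes but often not their call, with log2 fold changes of -1.06 to -0.79 for Cd68 (limma adjusted p 0.0896 to 0.174) and of -1.08 to -0.97 for Adgre1 (0.0842 to 0.213). Cd68 kept its call without mouse X2370, X2378 or X2409, and Adgre1 without mouse X2409 only. The number of markers called also depended on the model. It was 8 of 10 when only the saline-infused mice were fitted, beside 9.57% of all tested genes, and 0 of 10 with 1 of 4 covariates. These were the level of smooth muscle markers, with 8.33% of all tested genes called, the level of fibroblast markers (0.283%), the lymphatic endothelial score (0.397%) and the mitochondrial share (0.209%), so that with the last 3 few genes of any kind were called. Smooth muscle markers summed to between 331003 and 438667 normalized counts in IKKβ+/+ mice and to between 426240 and 583450 in IKKβ-/- mice, and fibroblast markers to between 108815 and 154348 and between 92807 and 124317. With the smooth muscle level as a covariate the log2 fold changes were -0.76 for Cd68 (limma adjusted p = 0.107) and -0.60 for Adgre1 (limma adjusted p = 0.118), while those of Mrc1, C1qa and Cd163 were 0.02, -0.02 and 0.10. With the fibroblast level, the lymphatic score and the mitochondrial share they were -1.06, -0.98 and -0.99 for Cd68 and -0.71, -0.81 and -1.30 for Adgre1 (limma adjusted p 0.119 to 0.227 and 0.182 to 0.226).

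**Figure D2:**
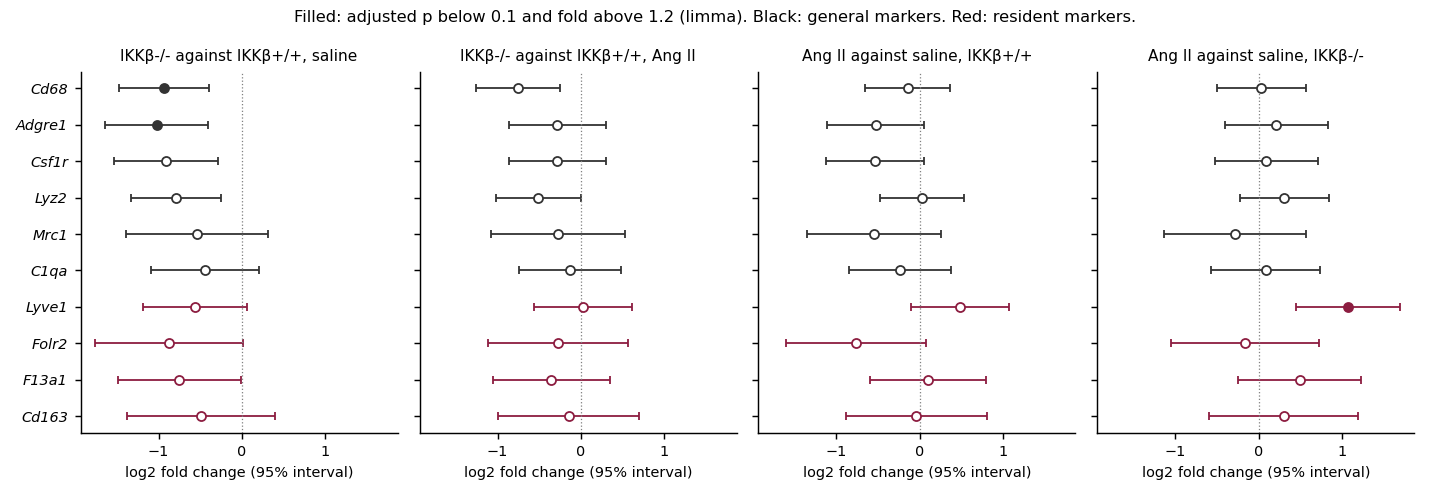
Log2 fold changes (x axes) with 95% intervals of the 10 markers (rows) in the 4 comparisons, from limma; general markers are black, resident markers red, and filled circles passed adjusted p below 0.1 with a fold above 1.2. The filled circles are Cd68 and Adgre1 in the genotype comparison with saline and Lyve1, at 1.07, in the Ang II comparison of IKKβ-/- mice.

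In IKKβ-/- mice, Ang II raised Lyve1, and the other 9 markers did not pass. This was 1 of 10 markers, beside 2.59% of all tested genes called higher. Lyve1 (chromosome 7, 110850607 to 110863239) was at 373, 343, 319 and 429.6 normalized counts in the 4 saline-infused mice and at 355, 641, 1267, 864 and 1053 in the 5 mice with Ang II. Of the latter, 4 were above all saline-infused mice and 1 lay among them. The log2 fold change was 1.07 ± 0.30 (limma adjusted p = 0.0593), a 2.10-fold rise with a 95% interval of the log2 value from 0.44 to 1.70. Without single mice it ranged from 0.89 (mouse X2384 left out) to 1.35 (mouse X2380 left out), and the call was lost without mouse X2384, X2385, X2386, X2401, X2403 or X2406 (limma adjusted p 0.116 to 0.150).

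The other resident markers gave 0.49 ± 0.36 for F13a1, 0.30 ± 0.43 for Cd163 and -0.16 ± 0.43 for Folr2, and the 6 general markers lay between -0.28 (Mrc1) and 0.31 (Lyz2). Limma adjusted p for these 9 was between 0.516 and 0.968. Over all 10 the median was 0.15, beside -0.0029 for all tested genes. F13a1 was at 1242, 1079, 872 and 957 with saline and at 609, 1463, 3067, 1217 and 1896 with Ang II. With Ang II 1 mouse was below all saline-infused mice and 3 were above them, so the treated group spread past the saline range on both sides.

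Lymphatic endothelial markers moved with Lyve1. Their sum was at 418 to 638 normalized counts in saline-infused IKKβ-/- mice and at 503, 864, 1776, 1699 and 2919 in those with Ang II. Mmrn1, a secreted protein of lymphatic vessels, rose by 4.43 on the log2 scale (limma adjusted p = 0.0330). Its groups overlapped, at 1.93 to 171 normalized counts with saline (median 10.1) and 48.1 to 1229 with Ang II. The other 4 tested genes of the list (Prox1, Flt4, Pdpn and Reln) had log2 fold changes between 0.72 and 2.42 that did not pass, and Ccl21a had group means below 10. With the mean of these markers as a covariate the log2 fold change of Lyve1 was 0.33 (limma adjusted p = 0.608), and with the adipocyte score it was 0.76 (limma adjusted p = 0.580). The adipocyte sum, at 1019.7 to 4241 with saline, was at 5732, 2315, 25079, 21697 and 7986 with Ang II. Monocyte genes were higher in the mean too: 6 of 6 lay above 0 with a median of 1.34, and 2 were called (Hp and Plac8). Their sum was between 109 and 194 with saline and between 256 and 4686 with Ang II. Hp, which adipocytes also make, had a mean of 1735 in the mice with Ang II and so made up much of that sum. In IKKβ+/+ mice the monocyte sum also rose, from between 175 and 932 with saline to between 1047 and 2874 with Ang II. There too, 2 of 6 monocyte genes were called higher, beside 4.33% of all tested genes.

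In IKKβ+/+ mice, 0 of 10 markers passed with Ang II, beside 8.66% of all tested genes called in either direction, and 0 had an unadjusted p below 0.05 in limma (20.3% of all tested genes). In edgeR and in DESeq2 fits of the recovered reads the count of markers called was also 0 (9.25% and 12.7% of all tested genes). The 3 largest decreases in mean were those of Folr2 (-0.77 ± 0.40, limma adjusted p = 0.295), Mrc1 (-0.55 ± 0.39, 0.449) and Csf1r (-0.54 ± 0.28, 0.289). Folr2 was at 234, 288, 284, 242 and 338 with saline and at 87.8, 143, 224, 141 and 272 with Ang II. Most mice with Ang II were below the saline-infused mice, but 1 was inside their range, and Folr2 passed only when the other genotype was left out of the fit (limma adjusted p = 0.0900).

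Lyve1 was at 351, 458, 627, 708 and 636 with saline and at 516, 818, 1038, 541 and 1016 with Ang II in IKKβ+/+ mice, a log2 fold change of 0.48 ± 0.28 (limma adjusted p = 0.356). The groups overlapped, with 3 of the 5 mice with Ang II above all saline-infused mice. With smooth muscle or fibroblast level as a covariate it was 1.15 (limma adjusted p = 0.0730) and 0.91 (limma adjusted p = 0.0711), with the mitochondrial share 0.35 (0.525) and with the lymphatic endothelial score 0.29 (0.399). The smooth muscle sum itself was 331003 to 438667 with saline and 458946 to 633459 with Ang II in these mice, without overlap. Of its 6 genes 2 were called higher, beside 4.33% of all tested genes. That covariate is thus bound to the treatment here. Of the 5 tested lymphatic endothelial genes 5 lay above 0 in these mice, with a median of 0.75, and 0 were called. Mrc1 was at 1376, 1360.0, 1583, 1579 and 2097 with saline and at 492, 1144, 1509, 899 and 1927 with Ang II, so that its groups overlapped with 3 of 5 mice below the saline range.

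With Ang II in both genotypes, 0 of 10 markers passed between IKKβ-/- and IKKβ+/+ mice, beside 0.128% of all tested genes. The unadjusted limma p was below 0.05 for 2 of the 10, Cd68 and Lyz2, and for 14.3% of all tested genes. The edgeR and DESeq2 fits called 0 markers as well (0.108% and 3.51% of all tested genes). Cd68 was at 165, 138, 151, 188 and 175 in IKKβ+/+ mice and at 88.7, 105, 176, 51.4 and 95.1 in IKKβ-/- mice. In the latter group 4 of 5 mice lay below all IKKβ+/+ mice and 1 among the highest (log2 fold change -0.76 ± 0.24, limma adjusted p = 0.212, 95% interval -1.26 to -0.25). The log2 fold changes of the other 9 markers were between -0.51 (Lyz2) and 0.02 (Lyve1), with a median of -0.28 over all 10, beside -0.01 for all tested genes.

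The difference of the Ang II effect between genotypes was above 0 for 10 of 10 markers, from 0.18 (Cd68) to 0.74 (Adgre1) on the log2 scale, where 49.8% of tested genes were above 0. None passed, and neither did any tested gene (0.00%) in limma, with an unadjusted p below 0.05 for 0 of the 10 markers and 11.1% of genes (edgeR called 3 genes, or 0.0202%, and DESeq2 279, or 1.88%, with 0 markers in each). For Lyve1 the difference was 0.59 ± 0.41 (limma adjusted p = 0.589, 95% interval -0.27 to 1.45), so the call in IKKβ-/- mice alone does not show that its response differed between genotypes. All 10 differences contain the same saline-infused mice as the genotype comparison above, and with the smooth muscle level as a covariate all 10 were below 0. That level itself was higher with Ang II in IKKβ+/+ mice, so these covariate values are bound to the treatment.

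The general and resident markers were then set against each other within each mouse. The mean log2 value of the 4 resident markers minus that of the 6 general markers was -0.48 ± 0.18 (SD, n = 5) in saline-infused IKKβ+/+ mice, -0.21 ± 0.39 (n = 5) in IKKβ+/+ mice with Ang II, -0.37 ± 0.25 (n = 4) in saline-infused IKKβ-/- mice and -0.02 ± 0.26 (n = 5) in IKKβ-/- mice with Ang II. The resident markers were thus 0.27 higher relative to the general ones with Ang II in IKKβ+/+ mice and 0.35 higher in IKKβ-/- mice, with overlapping groups in both. With single mice left out these shifts ranged from 0.17 (without mouse X2356) to 0.43 (without mouse X2350) and from 0.25 to 0.46. Between saline-infused genotypes the balance differed by 0.10, from 0.0056 without mouse X2409 to 0.21 without mouse X2403. Most of the Ang II shift was in 1 gene: without Lyve1 it was 0.09 in IKKβ+/+ and 0.14 in IKKβ-/- mice. The size of the shift also depends on counting Mrc1 as general. It had the lowest log2 fold change of the 6 general markers with Ang II in both genotypes (-0.55 and -0.28). After removal of group means, Mrc1 followed F13a1 (correlation 0.97), Cd163 (0.95), Folr2 (0.94) and Csf1r (0.92) more closely than Lyz2 (0.48) or Cd68 (0.40). Wider lists of 19 other resident and 18 other general macrophage genes did not show the shift in IKKβ+/+ mice. Their median log2 fold changes with Ang II were -0.31 and -0.27, with 14 of the 19 resident genes below 0. In IKKβ-/- mice the medians were 0.19 and 0.017, with 14 of the 19 above 0.

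Relative to the mean of the other 9 markers, Lyve1 was between -0.93 and -0.28 on the log2 scale in saline-infused IKKβ+/+ mice and between 0.02 and 0.35 with Ang II. In IKKβ-/- mice it was between -0.63 and -0.01 with saline and between 0.12 and 1.13 with Ang II. The groups did not overlap in either genotype, and set against the same marker mean this held for 2.65% of tested genes in IKKβ+/+ mice and for 1.19% in IKKβ-/- mice, counting both directions. These shares are not a like background for the markers, which vary together from mouse to mouse. Subtracting the marker mean removes shared spread from a marker but adds that spread to genes that do not follow the markers. How unusual Lyve1 was by this measure therefore cannot be read from the shares. Groups without overlap were found for 3 of 10 markers in IKKβ+/+ mice, Lyve1 upward and Folr2 and Csf1r downward, and for 2 of 10 in IKKβ-/- mice, Lyve1 upward and Mrc1 downward.

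The counts of Lyve1 were also set against those of Mrc1. Relative to the mean of the other 9 markers, Mrc1 moved the other way with Ang II (-0.36 in IKKβ+/+ and -0.55 in IKKβ-/- mice), so the ratio holds both changes. Lyve1 was at 25.5%, 33.7%, 39.6%, 44.9% and 30.3% of the Mrc1 count in saline-infused IKKβ+/+ mice and at 105%, 71.5%, 68.8%, 60.1% and 52.7% with Ang II. In IKKβ-/- mice it was at 36.3%, 27.8%, 32.0% and 38.4% with saline and at 117%, 62.8%, 55.8%, 127% and 86.9% with Ang II. All 10 mice with Ang II were above all 9 saline-infused mice. Against F13a1 the groups overlapped in both genotypes, with Lyve1 at 24.9% to 41.2% and 32.1% to 58.0% of the F13a1 count in IKKβ+/+ mice and at 30.0% to 44.9% and 41.3% to 71.0% in IKKβ-/- mice. The pair with Mrc1 was chosen after these values were seen, and no test was run on these ratios.

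**Figure D3:**
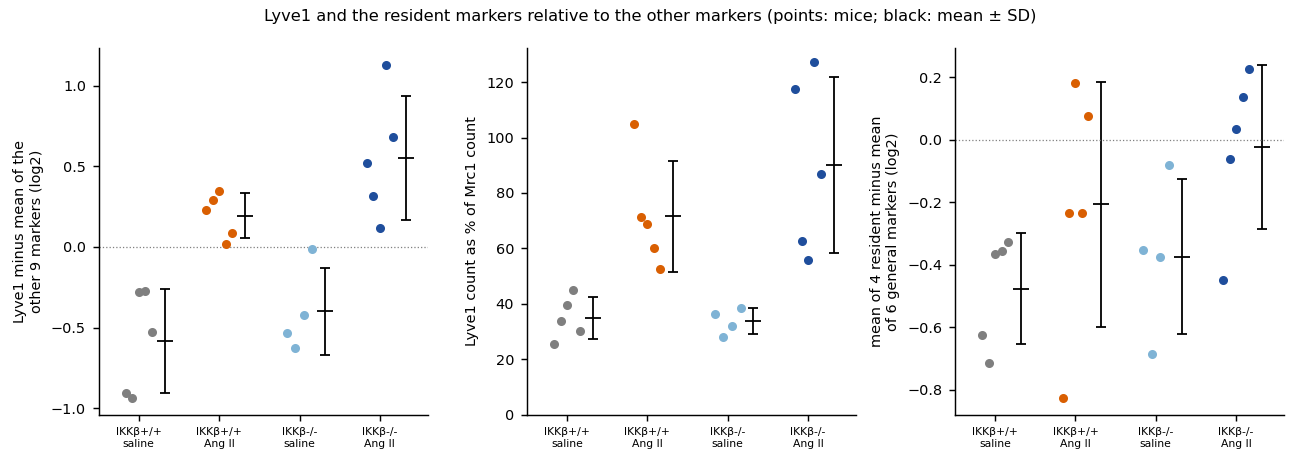
Log2 value of Lyve1 minus the mean of the other 9 markers (left), the Lyve1 count as a percentage of the Mrc1 count (middle) and the mean of the 4 resident minus the mean of the 6 general markers (right) in each mouse by group, with mean and SD in black. In the left and middle panels the mice with Ang II lie above the saline-infused mice of the same genotype, while in the right panel the groups overlap.

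The markers varied together from mouse to mouse within groups. Over the 45 pairs of markers the median correlation of log2 values was 0.78 across the 19 mice, and 0.83 (range 0.18 to 0.97) after each group's mean was removed, with all points sharing libraries and size factors. Mrc1 and F13a1 formed the closest pair, and Cd68 was the least like the others, with a mean correlation of 0.45 over its 9 pairs. The mean of the general and the mean of the resident markers had a Pearson correlation of 0.90 and a Spearman correlation of 0.82 over the 19 mice after removal of group means, and a Pearson correlation of 0.79 over 17 mice without the 2 farthest.

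Those 2 were mice of the IKKβ-/- group with Ang II. Mouse X2384 was the highest of its group for 10 of 10 markers and the highest of all 19 mice for 6. Mouse X2380 was the lowest of its group for 9 of 10 and the lowest of all 19 for 7. The 10 counts summed to 17336 in the former and to 3968 in the latter, where the saline-infused mice of the same genotype lay between 5933 and 7723. The coefficient of variation of the 10 markers was accordingly between 42.4% and 78.3% in IKKβ-/- mice with Ang II and between 6.62% and 25.4% in saline-infused IKKβ-/- mice. The spread with Ang II was not confined to IKKβ-/- mice. The SD of the resident mean was 0.27 with saline and 0.67 with Ang II in IKKβ+/+ mice, and 0.15 and 0.92 in IKKβ-/- mice. For the general mean it was 0.18 and 0.32, and 0.23 and 0.75.

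**Figure D4:**
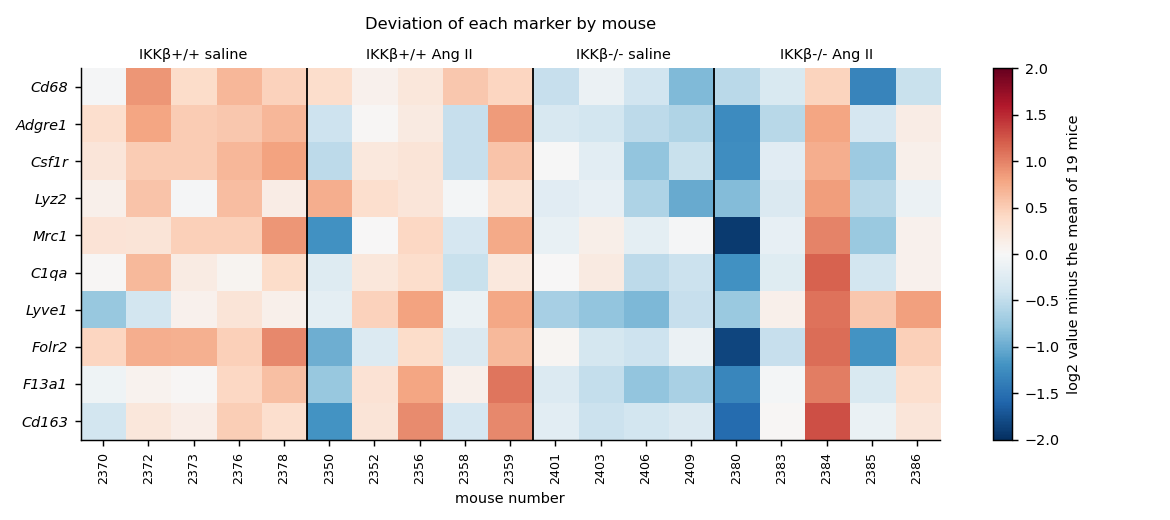
Log2 value of each marker (rows) in each mouse (columns, by mouse number within the 4 groups) minus its mean over the 19 mice, in log2 units on the colour scale. Mouse X2384 is red and mouse X2380 blue across nearly all rows, and the columns of saline-infused IKKβ-/- mice are mostly pale to mid blue.

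Other cell type markers went with this common variation. After removal of group means, the mean of the 10 markers had a correlation of -0.78 with the log2 sum of smooth muscle markers, 0.58 with that of fibroblast markers, 0.64 with that of lymphatic endothelial markers and 0.17 with that of monocyte markers over the 19 mice, and 0.16 with the mitochondrial share. Among single markers, Lyve1 had the highest correlation with the lymphatic sum (0.83) and Cd68 the lowest (0.02). Mouse X2384 had the lowest smooth muscle sum of all mice (304360) and mouse X2380 the lowest fibroblast sum (63036). The part of these cell types in the spread of the markers between mice was not tested.

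**Figure D5:**
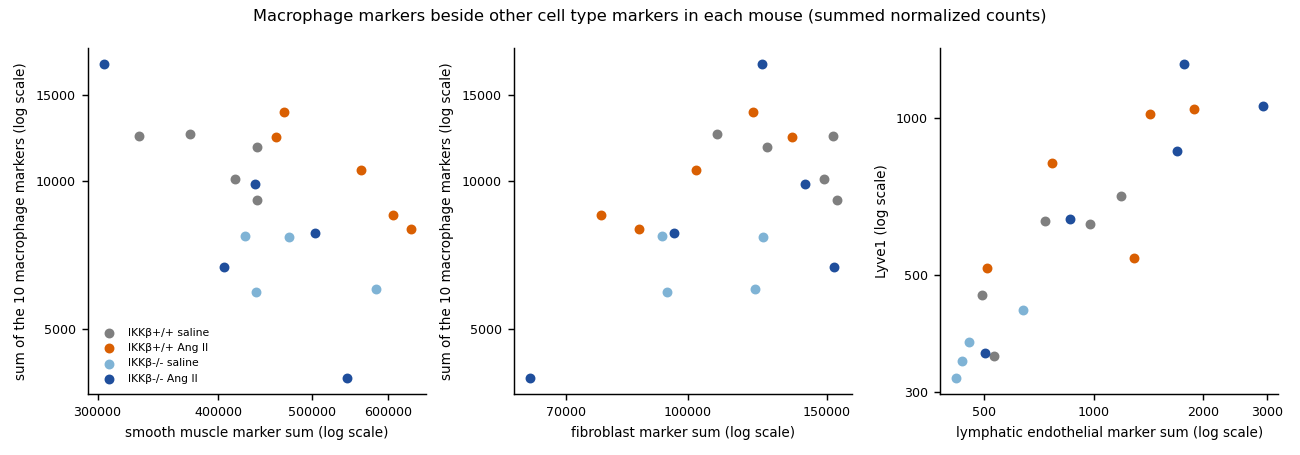
Sum of the 10 macrophage markers against the summed smooth muscle markers (left) and fibroblast markers (middle), and Lyve1 against the summed lymphatic endothelial markers (right), in normalized counts on log axes, with 1 point per mouse coloured by group. Marker sums fall from left to right in the left panel, and Lyve1 rises with the lymphatic markers in the right panel.

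Genes outside the 10 that followed them most closely across the 19 mice, after removal of group means, were C1qc (0.98), Cmtm3 (0.91), Ms4a7 (0.90), Tlr7 (0.90) and Syk (0.89) for the mean of the general markers. C1qc encodes the C chain of the protein to which C1qa contributes, and Tlr7 an endosomal receptor for RNA. For the mean of the resident markers they were Mgl2 (0.95), Cmtm3 (0.94), Cd33 (0.94), Slc9a9 (0.93) and Siglec1 (0.92), of which Mgl2 encodes a galactose-binding lectin and Cd33 and Siglec1 sialic acid-binding lectins. These are the highest of 14845 genes and carry no test.

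A list of 18 other general macrophage genes gave 4 lower and 0 higher in IKKβ-/- mice with saline, with 16 of 18 log2 fold changes below 0 and a median of -0.62, where 2.07% of all tested genes were called lower, 52.4% lay below 0 and the median was -0.02. The 4 were Ptprc, the pan-leukocyte phosphatase CD45 (-1.20, limma adjusted p = 0.0487), Laptm5 (-0.86, 0.0430), Ctss, the lysosomal protease cathepsin S (-0.86, 0.0928), and Cybb, the catalytic subunit of the phagocyte NADPH oxidase (-0.79, 0.0579). In the other comparisons Trf, the gene of transferrin, was the only one of the 18 to pass, rising with Ang II in IKKβ-/- mice (1.13, limma adjusted p = 0.0899). The log2 fold changes with saline of Aif1, Fcer1g and Mertk, which clears apoptotic cells, were 0.01, -0.04 and 0.01.

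Among 19 other genes of resident perivascular macrophages, Stab1, a scavenger receptor shared with sinusoidal and lymphatic endothelium, was the only one to pass with saline (-0.94, limma adjusted p = 0.0575), with 16 of 19 below 0 and a median of -0.35. This 1 call in 19 stands beside 2.07% of all tested genes called lower. With Ang II in IKKβ+/+ mice Stab1 (-0.69, limma adjusted p = 0.0906) and Slc40a1, the iron exporter ferroportin (-1.22, 0.0723), fell, and Igf1 rose (0.64, 0.0472). Igf1 also rose with Ang II in IKKβ-/- mice (0.63, limma adjusted p = 0.0791), where no other gene of this list passed. Of all tested genes 4.33% were called higher and 4.33% lower with Ang II in IKKβ+/+ mice. Cbr2, Cd209f and Fcna, which mark the same cells, did not pass in any comparison.

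Regulators of these cells were set beside the share of all tested genes called in either direction. This share was 8.66% with Ang II in IKKβ+/+ mice (4.33% higher) and 5.29% in IKKβ-/- mice (2.59% higher). Between genotypes it was 5.47% with saline and 0.128% with Ang II. Spi1, which encodes PU.1, had log2 fold changes between -0.25 and 0.06 over the 4 comparisons, and of 9 macrophage transcription factors only Cebpb passed, rising with Ang II in IKKβ+/+ mice (1.01, limma adjusted p = 0.0122). Of 7 genes for ligands and adaptors around CSF1R, 0 passed in any comparison, and Csf1 itself was between -0.39 and 0.27. Among 10 tested ligands and partners of the markers, Has1 (2.93, limma adjusted p = 0.0320), which makes the LYVE1 ligand hyaluronan, Hp (2.74, 0.0746), which encodes the CD163 ligand haptoglobin, and the hyaluronan receptor gene Cd44 (1.01, 0.0898) rose with Ang II in IKKβ+/+ mice, and Hp rose in IKKβ-/- mice (4.37, 0.0151). Hp is also in the list of monocyte genes used here and is made by adipocytes. In IKKβ-/- mice 4 of 5 tested adipocyte genes were called higher with Ang II, and in IKKβ+/+ mice 0 of 5.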

How the data were processed

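RNA from 19 aortas was sequenced. By the study's methods and processing notes, the authors prepared stranded poly(A) libraries, read 84 bases from one end, trimmed with Trimmomatic 0.35, mapped to GRCm38 (Gencode M25) by STAR 2.7.1a and divided each mouse's gene counts by a size factor from DESeq2 1.30.1. These quotients make up the deposited signal table. Every value (100%, tolerance 0.01 reads) was a whole number of reads once the size factor was undone, and count tests used those reads.

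After a filter that asked for 10 or more normalized counts in 4 or more mice (14845 of 20408 genes kept), values were fitted on log2(value + 1) with limma 3.58.1 (lmFit, eBayes with trend) in 1 model of 4 group means, two-sided, with Benjamini-Hochberg adjustment over all genes tested. A fold change is therefore on the log2(value + 1) scale, which pulls low genes toward 0. Thresholds are those of the study. The alternatives were edgeR 4.0.16 with its quasi-likelihood test, DESeq2 1.42.0 (both run on the reads), another pseudocount, no filter, TMM scaling, array weights, stricter thresholds, covariates and leaving out each mouse. The markers, the lists and their tests were chosen with earlier results of these data known. The rule for named genes took the 10 markers, up to 4 genes that passed per list and comparison, the first 2 genes of each cell type list, Csf1 and Il34, Ikbkb, and the 5 genes most like each marker mean, and other genes named were chosen after their values were seen. Exon lengths came from Gencode M21. Scripts were tested on simulated data. No library repeated another.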

Additional observations from a re-analysis of the deposited data

How the results depend on the processing

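The call of Lyve1 in IKKβ-/- mice with Ang II and those of Cd68 and Adgre1 between saline-infused genotypes depended on the model. With Ang II in IKKβ+/+ mice the number of markers past the threshold, 0 as reported, was 1 when only the groups compared were fitted (Folr2, 12.8% of all tested genes called) and 1 with smooth muscle or fibroblast level as a covariate (Lyve1, 0.714% and 1.93%). In IKKβ-/- mice it was 1 as reported and 0 at an adjusted p under 0.05 (2.78% of all tested genes), with only the groups compared (1.99%), and with the adipocyte (0.175%) or lymphatic endothelial score (1.68%) as a covariate. Between saline-infused genotypes it was 2 as reported, 8 with only the groups compared (9.57%), 4 with array quality weights (12.8%), TMM scaling (5.31%) or DESeq2 (9.68%), 1 with the adipocyte score (2.03%), and 0 at an adjusted p under 0.05 (0.916%) and with the lymphatic endothelial score, the mitochondrial share, or smooth muscle or fibroblast level as a covariate. With 1 mouse left out at a time the number ranged from 0 to 1 for Ang II in IKKβ-/- mice and from 0 to 2 between saline-infused genotypes. For the genotypes with Ang II and for the difference of the Ang II effect it was 0 in all alternatives run. The balance of resident against general markers, with the lymphatic endothelial score as a covariate, was -0.096 with Ang II in IKKβ-/- mice, 0.32 between saline-infused genotypes and -0.25 in the difference, and with smooth muscle level the difference was -0.21. The covariates other than the adipocyte score, and scaling by the total of nuclear genes, were chosen after seeing the data. Smooth muscle level was itself higher with Ang II in IKKβ+/+ mice, without overlap. Values with this covariate for Ang II in those mice, and for the difference, are therefore bound to the treatment. The causes were not tested.

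For Ang II in IKKβ+/+ mice, the log2 fold change turned sign with smooth muscle level for Adgre1 (0.19), Cd163 (0.97), Cd68 (0.14), Csf1r (0.12), Mrc1 (0.40), Folr2 (0.093) and C1qa (0.48), with array quality weights for Cd163 (0.13) and Lyz2 (-0.036), with edgeR for Cd163 (0.14), with DESeq2 for Cd163 (0.14), with fibroblast level for Cd163 (0.53) and C1qa (0.092), with the lymphatic endothelial score for F13a1 (-0.073), with the mitochondrial share for Lyz2 (-0.061), with nuclear total scaling for Lyz2 (-0.025). For Ang II in IKKβ-/- mice, the log2 fold change turned sign with the adipocyte score for Adgre1 (-0.048), Cd163 (-0.076), Csf1r (-0.097) and C1qa (-0.13), with the lymphatic endothelial score for Adgre1 (-0.22), Cd163 (-0.57), Csf1r (-0.32), C1qa (-0.18) and F13a1 (-0.17), with smooth muscle level for Adgre1 (-0.023), Cd163 (-0.027), Cd68 (-0.063), Csf1r (-0.12) and C1qa (-0.15), with edgeR for Mrc1 (0.0087) and Folr2 (0.21), with DESeq2 for Mrc1 (0.0029) and Folr2 (0.21). For the genotypes with saline, the log2 fold change turned sign with smooth muscle level for Cd163 (0.10) and Mrc1 (0.020). For the genotypes with Ang II, the log2 fold change turned sign with the adipocyte score for Lyve1 (-0.083), with the mitochondrial share for Lyve1 (-0.11), with the lymphatic endothelial score for Lyve1 (-0.17), with smooth muscle level for Lyve1 (-0.47), with fibroblast level for Lyve1 (-0.082), with edgeR for Folr2 (0.0054) and C1qa (0.059), with DESeq2 for Folr2 (0.0045) and C1qa (0.057). For the difference of the Ang II effect, the log2 fold change turned sign with smooth muscle level for Adgre1 (-0.22), Cd163 (-0.999), Cd68 (-0.21), Csf1r (-0.24), Mrc1 (-0.99), Lyve1 (-0.30), Folr2 (-0.53), C1qa (-0.63), F13a1 (-0.74) and Lyz2 (-0.35), with the adipocyte score for Cd163 (-0.0068) and Mrc1 (-0.14), with the lymphatic endothelial score for Cd163 (-0.30), Mrc1 (-0.35) and F13a1 (-0.10), with fibroblast level for Cd163 (-0.28), Mrc1 (-0.32), C1qa (-0.041) and F13a1 (-0.11). With 1 mouse left out at a time, it ranged for Ang II in IKKβ+/+ mice from -0.25 to 0.29 for Cd163, from -0.098 to 0.36 for F13a1 and from -0.076 to 0.11 for Lyz2. With 1 mouse left out at a time, it ranged for Ang II in IKKβ-/- mice from -0.044 to 0.47 for Adgre1, from -0.025 to 0.68 for Cd163, from -0.19 to 0.25 for Cd68, from -0.16 to 0.33 for Csf1r, from -0.62 to 0.11 for Mrc1, from -0.54 to 0.20 for Folr2 and from -0.24 to 0.36 for C1qa. With 1 mouse left out at a time, it ranged for the genotypes with Ang II from -0.48 to 0.23 for Cd163, from -0.61 to 0.12 for Mrc1, from -0.16 to 0.30 for Lyve1, from -0.64 to 0.095 for Folr2 and from -0.45 to 0.15 for C1qa. With 1 mouse left out at a time, it ranged for the difference of the Ang II effect from -0.042 to 0.40 for Cd68, from -0.071 to 0.66 for Mrc1 and from -0.0090 to 0.59 for C1qa.

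None of the values that turned sign had passed the threshold. Scaling by the total of nuclear genes moved the median log2 value over all tested genes by 0.10 between the genotypes with Ang II and by 0.13 in the difference. The lowest value of a marker in any mouse was 48.1 normalized counts (Folr2), so depth limits the low markers Folr2, Cd68 and Adgre1 most. No paired analysis was possible because each mouse carries a number of its own.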

Other observations

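Outside the markers and their regulators, some genes of the lists of macrophage states passed, beside 4.33% of all tested genes called higher and 4.33% called lower with Ang II in IKKβ+/+ mice. With Ang II in IKKβ+/+ mice, Lgals3, which encodes galectin-3, rose by 1.63 on the log2 scale (limma adjusted p = 0.00603) as 1 of 13 genes of lipid-laden lesion macrophages, and Ptgs2, the inducible cyclooxygenase, by 2.17 (limma adjusted p = 0.0471) as 1 of 8 tested inflammatory genes. Of the 13 lesion genes 8 lay below 0, with a median of -0.21. Of the 8 inflammatory genes 3 lay below 0, with a median of 0.07. Il1b, Nlrp3 and Ccl2 did not pass in any comparison, and Tnf, Nos2 and Il1a had group means below 10 normalized counts. Chil3, a chitinase-like protein of monocytes and alternatively activated macrophages, rose by 3.03 in the same mice (limma adjusted p = 0.0498). Several of these genes are also made by other cells of the wall.

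Il4ra, the receptor chain for IL-4 and IL-13, was the only gene of these lists to pass in 3 comparisons: it rose with Ang II in IKKβ+/+ mice (0.52, limma adjusted p = 0.0552) and in IKKβ-/- mice (0.98, 0.00368) and was lower in saline-infused IKKβ-/- than IKKβ+/+ mice (-0.78, 0.0367). Of all tested genes, 2.59% were called higher with Ang II in IKKβ-/- mice and 2.07% lower between the saline-infused genotypes. Of 10 tested scavenger and phagocytosis receptors, Cd36 (2.35, limma adjusted p = 0.0221) and Scarb1 (1.13, 0.0481) rose with Ang II in IKKβ-/- mice, where adipocyte markers, which go with both genes in fat, rose as well (Adipoq 4.70, limma adjusted p = 0.0129). In IKKβ+/+ mice Mfge8 rose (0.56, limma adjusted p = 0.0405) and Colec12 fell (-0.54, 0.0509).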
